A study of Mus musculus with 6 samples.

Results

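The MiT/TFE family of transcription factors (Mitf, Tfeb, Tfe3 and Tfec) and 4 genes that control when these factors enter the nucleus (Flcn, Mcoln1, Rragc and Rragd) were followed in a mouse pancreatic duct line after a hairpin against Atoh8. The 8 genes were taken by symbol, and all 8 were measured, by 15 of the 45037 non-control probe sets, among 18193 genes in all. A probe set was used where its annotation gave exactly 1 symbol, and of several the brightest on average over the 6 arrays, a value blind to the hairpins, stood for its gene. The genes were chosen by symbol but proposed with the measured fold changes of shAtoh8 over shControl in view, so its fold changes and p-values describe these genes and are not independent evidence about them.

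The cells were mPAC L20, a mouse pancreatic duct line. Every culture, the controls included, received an adenovirus that expresses Neurog3, the factor that starts endocrine differentiation, from the CMV promoter. Before it, 3 cultures received an adenovirus with a scrambled hairpin (shControl) and 3 received one with a hairpin specific for Atoh8 (shAtoh8), a basic helix-loop-helix factor, each virus at a multiplicity of infection of 40, and were harvested after another 44 to 46 h. The labels describe the 3 replicates of a group as separate experiments. All come from 1 cell line, and cultures without the Neurog3 virus were not analysed here. Values are log2 signals from Affymetrix arrays, so a difference of 1 is a 2-fold change. Probe sets bind with different strength, so levels of different genes were not ranked against each other.

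Array medians lay between 5.49 and 5.56. The gap between the 3' and 5' actin control probe sets, a measure of RNA integrity, was 0.107 to 0.202 on 5 arrays and 0.354 on shAtoh8 replicate 2. Atoh8 itself had signals of 8.75, 8.29 and 7.52 in replicates 1 to 3 of shControl and of 7.83, 7.90 and 7.37 in those of shAtoh8, lower in every pair, but the difference missed the threshold (limma adjusted p = 0.573). Neurog3, which the virus brought to both groups, was lower in every pair on 1 probe set (-0.67, -0.58 and -0.46). Its limma adjusted p was 0.706, and 0.033 with the replicate block. The other Neurog3 probe set, of nearly the same mean signal (6.33 against 6.34), read 0.18 ± 0.17 (SE), with pairs at 0.23, 0 and 0.31. Whether these probe sets read the viral or the cells' own copy, and the part of a Neurog3 difference in the results, was not tested. Of the duct keratins, Krt8, Krt18 and Krt19 had mean signals of 13.40 to 13.91 in both groups, and Krt7 had 10.78 in shControl and 10.53 in shAtoh8.

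MiT/TFE proteins are basic helix-loop-helix leucine zipper factors that bind as dimers to CACGTG motifs, above all in the promoters of lysosomal and autophagy genes, where the motif with its flanks is called the CLEAR element. In fed cells the kinase mTORC1, held at the lysosome by the Rag GTPases, phosphorylates Tfeb, Tfe3 and Mitf, and 14-3-3 proteins then keep them in the cytoplasm. RagC and RagD present the factors to the kinase, folliculin (Flcn) with its partners Fnip1 and Fnip2 sets the nucleotide that RagC and RagD carry, and the lysosomal calcium channel Mcoln1 activates calcineurin, which removes the phosphates. In human pancreatic ductal carcinoma, MITF, TFE3 and TFEB are known for maintaining lysosome and autophagy genes. This control acts on protein location, which arrays do not measure.

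The sequence that the factors read is present in the promoters of 2 of the 4 control genes. RefSeq start sites (GRCm38.p6) gave 13 windows of the 250 bases before a start for the 8 genes. CACGTG stood in 6.02% and its CLEAR-like extension TCACGTGA, which contains CACGTG, in 0.785% of all 32851 such windows. Both motifs read the same on either strand. The Mcoln1 window held CACGTG at 71 and 45 bases before the start, the nearer one within TCACGTGA, and the Rragc window held it at 112 bases before the start. None of the windows of the other 6 genes held CACGTG, and this says only that these letters are not in these windows. TGACGTCA, the cyclic AMP response element, also the same on both strands and found in 1.55% of all windows, was present in the Flcn window and in 1 of the 3 Mitf windows. The windows of Mcoln1 and Rragc are shown as those with CACGTG. A Mitf window is shown because Mitf had the largest fold change of the 8 genes, and of its 3 windows the one with TGACGTCA was taken. CACGTG or TCACGTGA is in capitals in the first and second, and TGACGTCA in the last. They lie at chr8:3500269-3500518, chr4:123917183-123917432 and chr6:97991533-97991782, each on the plus strand. The Mcoln1 and Rragc windows end at the gene's 1 start in the table, and the Mitf window precedes the last of its 3 starts, so it lies inside the gene as annotated from the first. Which Mitf start the array reads was not tested.
Mcoln1: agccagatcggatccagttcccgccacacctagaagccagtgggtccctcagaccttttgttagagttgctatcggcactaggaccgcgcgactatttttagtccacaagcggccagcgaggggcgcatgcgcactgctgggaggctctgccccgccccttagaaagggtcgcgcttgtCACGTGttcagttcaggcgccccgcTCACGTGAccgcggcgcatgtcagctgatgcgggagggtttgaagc
Rragc: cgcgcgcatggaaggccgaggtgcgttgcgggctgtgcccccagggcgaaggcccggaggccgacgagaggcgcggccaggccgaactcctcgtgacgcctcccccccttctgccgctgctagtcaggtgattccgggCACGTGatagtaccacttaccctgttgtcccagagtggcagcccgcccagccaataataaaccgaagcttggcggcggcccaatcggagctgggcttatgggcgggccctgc
Mitf: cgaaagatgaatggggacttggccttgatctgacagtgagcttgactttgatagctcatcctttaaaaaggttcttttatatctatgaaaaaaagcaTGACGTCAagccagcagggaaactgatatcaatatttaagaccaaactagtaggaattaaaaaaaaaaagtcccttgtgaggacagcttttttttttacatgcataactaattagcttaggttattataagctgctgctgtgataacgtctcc

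Of the 8 genes, Mitf rose and 0 fell in limma at an adjusted p under 0.05 over all probe sets, where 0.517% of genes passed higher and 0.638% lower. With the replicate number as a block, 2 of the 8 passed higher (Mitf and Rragc), where 1.92% of genes did, and 0 passed lower, where 2.75% did. At an unadjusted p under 0.05, 5 of the 8 passed in either direction, against 17.5% of genes. All 3 shAtoh8 arrays lay above all 3 shControl arrays for 4 of the genes (Mitf, Flcn, Mcoln1 and Rragc; 12.6% of genes) and below them for 2 (Tfeb and Tfe3; 11.4% of genes). The median log2 fold change was 0.10 over the 8 genes and 0.01 over all genes. The genes were chosen with this comparison known, so nothing is read from these shares.

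**Figure D1:**
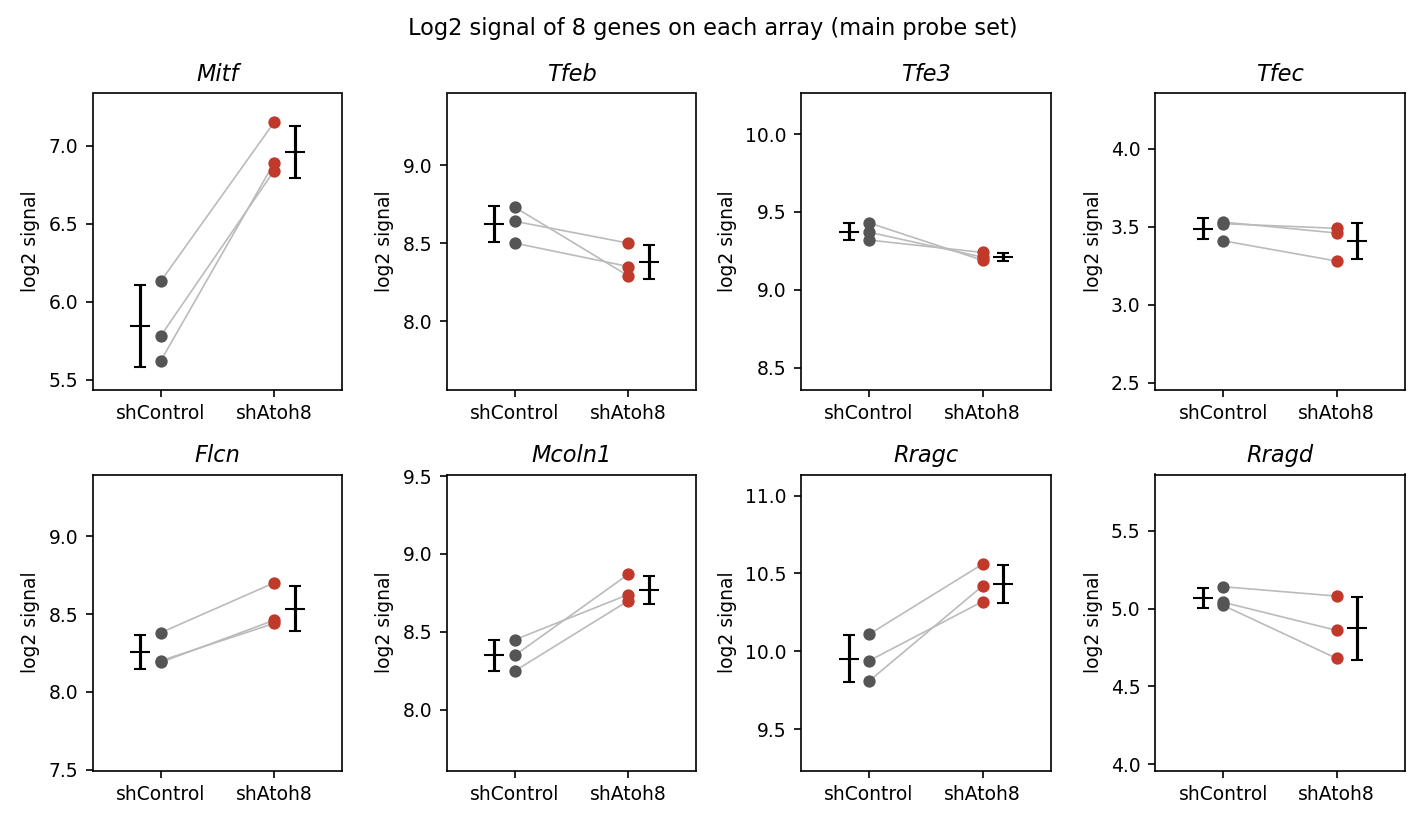
Log2 signal (y axis, each panel spanning the same range) of the 8 genes on their main probe sets in shControl and shAtoh8. Points are arrays, grey lines join arrays of the same replicate number, and black bars are the mean and SD of 3 arrays. Mitf has the widest gap between groups (5.62 to 6.13 against 6.84 to 7.15), while Tfec and Rragd overlap.

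Mitf, the family member that governs melanocyte and osteoclast genes and is also found in epithelia, rose 2.17-fold. On its main probe set (1455214_at), replicates 1, 2 and 3 of shControl gave 6.13, 5.62 and 5.78 and those of shAtoh8 gave 7.15, 6.89 and 6.84. The lowest shAtoh8 array stood above the highest shControl array, and the pairs differed by 1.02, 1.27 and 1.06. Group means of 5.84 ± 0.26 and 6.96 ± 0.17 (SD, n = 3 each) differed by 1.12 ± 0.15 (SE) on the log2 scale (limma adjusted p = 0.0351). It ranked 32 of 18193 genes by size of rise. The call rested on all 6 arrays: leaving out any one of them gave a log2 fold change of 1.01 to 1.26 and an adjusted p of 0.057 to 0.135, with 1.15 (0.0584) without shAtoh8 replicate 2, the array with the wider actin gap.

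The other Mitf probe set did not follow. It (1422025_at) read 4.62, 4.53 and 4.36 in shControl and 4.58, 4.70 and 4.51 in shAtoh8, with overlapping groups and a log2 fold change of 0.09 ± 0.10 (SE; adjusted p = 0.784). Its mean brightness, over the 6 arrays, lay at percentile 34 of all probe sets, against 60.1 for the main one. As the mean of both probe sets Mitf read 0.61 ± 0.11 (adjusted p = 0.0334, adjusted over genes rather than probe sets). Which Mitf transcripts each probe set reads was not tested. The rise of Mitf is therefore a value of 1 of its 2 probe sets.

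Tfeb and Tfe3, the widely expressed members that drive lysosomal genes when mTORC1 is off, read lower in shAtoh8 by small amounts that did not pass. Tfeb (1422566_at) read 8.73, 8.64 and 8.50 in shControl and 8.29, 8.50 and 8.35 in shAtoh8. To 2 decimals its highest shAtoh8 array equalled its lowest shControl array, and the unrounded values parted the groups. The log2 fold change was -0.24 ± 0.10 (SE; adjusted p = 0.327). Tfe3 (1434318_a_at) read 9.37, 9.32 and 9.43 against 9.21, 9.24 and 9.19, with no overlap but a fold of only 1.12 (log2 -0.16 ± 0.08, adjusted p = 0.425). Both were lower in all 3 pairs, as 21.5% of genes were.

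Tfec, the member known mainly from macrophages, had a dim probe set, at percentile 7.5 of brightness. It (1419537_at) read 3.41, 3.53 and 3.52 in shControl and 3.28, 3.46 and 3.49 in shAtoh8, and the groups overlapped. The log2 fold change was -0.08 ± 0.09 (SE; adjusted p = 0.809). No detection call comes with the deposited values, so whether Tfec was expressed was not tested.

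Within each array, the distance between the signals of the main Mitf probe set and of Tfeb narrowed. The other Mitf probe set, with a log2 fold change of 0.09, was not used for this. The log2 difference of Mitf minus Tfeb was -2.60, -3.02 and -2.73 on the shControl arrays (replicates 1, 2 and 3) and -1.14, -1.61 and -1.52 in shAtoh8, a shift of 1.36 on average (1.46, 1.40 and 1.21 by pair). Tfe3 minus Tfeb shifted by 0.27, 0.07 and -0.09, with no common sign. Such a shift shows unequal change of probe sets on an array, not the amounts of the factors.

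Mcoln1, the calcium channel, read higher in shAtoh8 on all 3 of its probe sets without passing. Its main probe set (1416672_s_at) read 8.45, 8.35 and 8.25 in shControl and 8.74, 8.87 and 8.70 in shAtoh8. The groups did not overlap, and every pair was higher in shAtoh8, by 0.28, 0.53 and 0.44. The log2 fold change was 0.42 ± 0.09 (SE), 1.34-fold, with a limma adjusted p of 0.0949. The other probe sets read 0.45 ± 0.09 (1416671_a_at, adjusted p = 0.0728) and 0.39 ± 0.14 (1431305_at, adjusted p = 0.256), the latter with overlapping groups. With all 3 probe sets averaged, the value was 0.42 and the adjusted p 0.0453. That fit had 1 row per gene, so its adjustment ran over 18193 genes and not over all probe sets. In it the adjusted p of Rragc, which has 1 probe set, also fell, from 0.103 to 0.059.

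Flcn, whose product with Fnip1 or Fnip2 acts as the GTPase activating protein for RagC and RagD, read 8.38, 8.19 and 8.20 in shControl and 8.70, 8.46 and 8.44 in shAtoh8 on its main probe set (1423663_at). The groups did not overlap, and the pairs differed by 0.33, 0.27 and 0.24. The log2 fold change was 0.28 ± 0.10 (SE; adjusted p = 0.292). A second Flcn probe set (1438167_x_at) read 0.41 ± 0.10 (adjusted p = 0.131), again without overlap, and another, dim one (1456744_x_at, percentile 25.3) read 0.09 ± 0.09. Both of these carry the suffix that marks possible cross-hybridisation.

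The 2 Rag genes, which encode alternative partners in the Rag heterodimer, had opposite signs. Rragc (1415749_a_at) read 9.94, 9.81 and 10.11 in shControl and 10.32, 10.42 and 10.56 in shAtoh8, with every shAtoh8 array above every shControl array. The log2 fold change was 0.48 ± 0.11 (SE), 1.39-fold, with an adjusted p of 0.103, and it passed with the replicate block (0.0477). The pairs differed by 0.37, 0.61 and 0.45. Rragd, itself a known target of MiT/TFE factors, read 5.14, 5.04 and 5.02 against 5.08, 4.86 and 4.68 on its main probe set (1434909_at, percentile 41.6 of brightness), with overlapping groups and a log2 fold change of -0.20 ± 0.11 (adjusted p = 0.547). Its other probe sets, dimmer still at percentiles 36.8 and 14.8 of brightness, read -0.06 ± 0.09 and 0.03 ± 0.08.

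**Figure D2:**
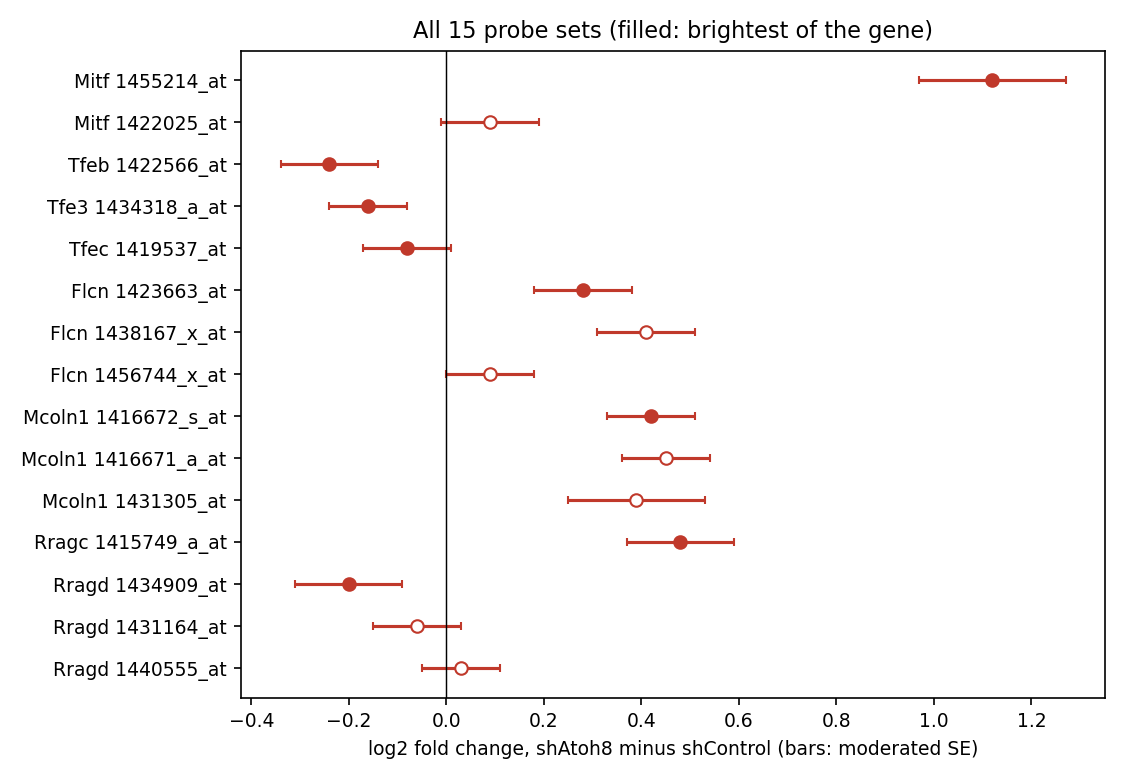
Log2 fold change of shAtoh8 over shControl (x axis) for each of the 15 probe sets, with the moderated SE as bars; filled points are the brightest probe set of a gene. The 3 Mcoln1 probe sets lie together at 0.39 to 0.45, while the 2 of Mitf lie apart at 1.12 and 0.09.

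Over the 6 arrays, the gene with the pattern most like that of Mitf was Smarcad1, a chromatin remodelling ATPase (Pearson r = 0.9995, log2 fold change 0.50). For Mcoln1 it was Nfia, a transcription factor (r = 0.9996, 0.70), for Rragc Eif2ak2, the double-stranded RNA kinase (r = 0.9978, 0.42), and for Flcn Agr3 (r = 0.9866, 0.24). For Tfeb it was Foxm1, a mitotic transcription factor (r = 0.9878, -0.41), for Tfe3 Phldb1 (r = 0.9976, -0.47), for Tfec Aatk (r = 0.9886, -0.07) and for Rragd Fgd1 (r = 0.9893, -0.28). These r describe 6 points in 2 groups, chosen as the highest of 18193, and 219 genes had an r above 0.95 with Mitf and 257 with Mcoln1.

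Among the partners of these proteins, 9 of 10 listed genes of the Rag, Ragulator and folliculin complexes were measured. Of these, 8 had a positive value, as did 9667 of all 18193 genes. The list had a median brightness percentile of 88.7, while all genes include dim ones, and genes of like brightness were not compared. The median log2 fold change was 0.22, against 0.01 over all genes. Of the 9, 1 passed lower, against 0.638% of all genes, and 0 higher, against 0.517%. It was Fnip2, the folliculin partner, which fell from 8.08 to 7.30. Its log2 fold change was -0.77 ± 0.11 (SE, adjusted p = 0.0364), with pairs at -0.79, -0.52 and -1.01. Its paralogue Fnip1, singled out after the values were seen, read 0.44 ± 0.08 (0.0671) without overlap between the groups, from 9.14 to 9.58. The folliculin partners thus had opposite signs in all 3 pairs. The Ragulator genes that anchor the Rag proteins at the lysosome (Lamtor1 to Lamtor5) read 0.04 to 0.33 higher, and none of the 5 passed.

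The listed GATOR, KICSTOR, mTORC1 and TSC genes passed in neither direction, where 0.517% of all genes passed higher and 0.638% lower. At such shares, 0 calls in lists this short say little about them. Of 13 GATOR and KICSTOR genes 12 were measured, with a median of 0.02 and 0 called. Of the 12, 2 lay under an unadjusted p of 0.05, against 17.5% of all genes. Those with the smallest p were Seh1l (-0.28 ± 0.11 SE, adjusted p = 0.319), also a nuclear pore protein, and Depdc5 (-0.21 ± 0.09, 0.333), a subunit of GATOR1, which inactivates RagA and RagB. The 9 mTORC1 and TSC genes, at a median brightness percentile of 83.4, had a median log2 fold change of 0.20 and 0 called. Of the 9, 1 lay under an unadjusted p of 0.05, against 17.5% of all genes. The smallest p belonged to Tsc2, which inactivates Rheb (0.22 ± 0.08, 0.256), and Akt1s1, an mTORC1 inhibitor (0.20 ± 0.09, 0.376).

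Of 17 kinases, calcineurin subunits and 14-3-3 proteins that act on MiT/TFE proteins, with their exporter Xpo1, 14 were measured. The 14 had a median of -0.05 and 0 called, where 0.517% of all genes passed higher and 0.638% lower. Of the 14, 2 lay under an unadjusted p of 0.05, against 17.5% of all genes. Xpo1, which carries Tfeb out of the nucleus, read 10.62 in shControl and 10.11 in shAtoh8 (-0.52 ± 0.10 SE, adjusted p = 0.0664), was lower in all 3 pairs, and passed with the replicate block (0.0488). Ywhag, a 14-3-3 protein, read -0.24 ± 0.08 (0.216). The calcineurin genes, singled out after the values were seen as a part of the Mcoln1 route, had mixed signs: the catalytic subunits Ppp3ca, Ppp3cb and Ppp3cc read 0.25 ± 0.13 (0.478), 0.11 ± 0.13 (0.803) and -0.35 ± 0.19 (0.501), the last without overlap between the groups, and the regulatory subunit Ppp3r1 read -0.06 ± 0.09 (0.866).

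Lysosomal ion channels and the enzymes for PI(3,5)P2, the lipid that opens Mcoln1, had positive values for 9 of 10 genes, against 9667 of all 18193. The median log2 fold change was 0.24 and the median brightness percentile 71.6. Of the 10, 1 passed higher, against 0.517% of all genes, and 0 lower, against 0.638%. It was Ostm1, the partner of the chloride transporter Clcn7, which rose from 9.17 to 10.20 (1.03 ± 0.08 SE, adjusted p = 0.0104). Its pairs read 0.88, 1.14 and 1.06. The groups did not overlap for 6 of the 10, all higher, as for 12.6% of all genes. Mcoln2 and Mcoln3, the paralogues of Mcoln1, read -0.07 ± 0.12 and 0.11 ± 0.10, at percentiles 36.1 and 11.1 of brightness, and were singled out after the values were seen.

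**Figure D3:**
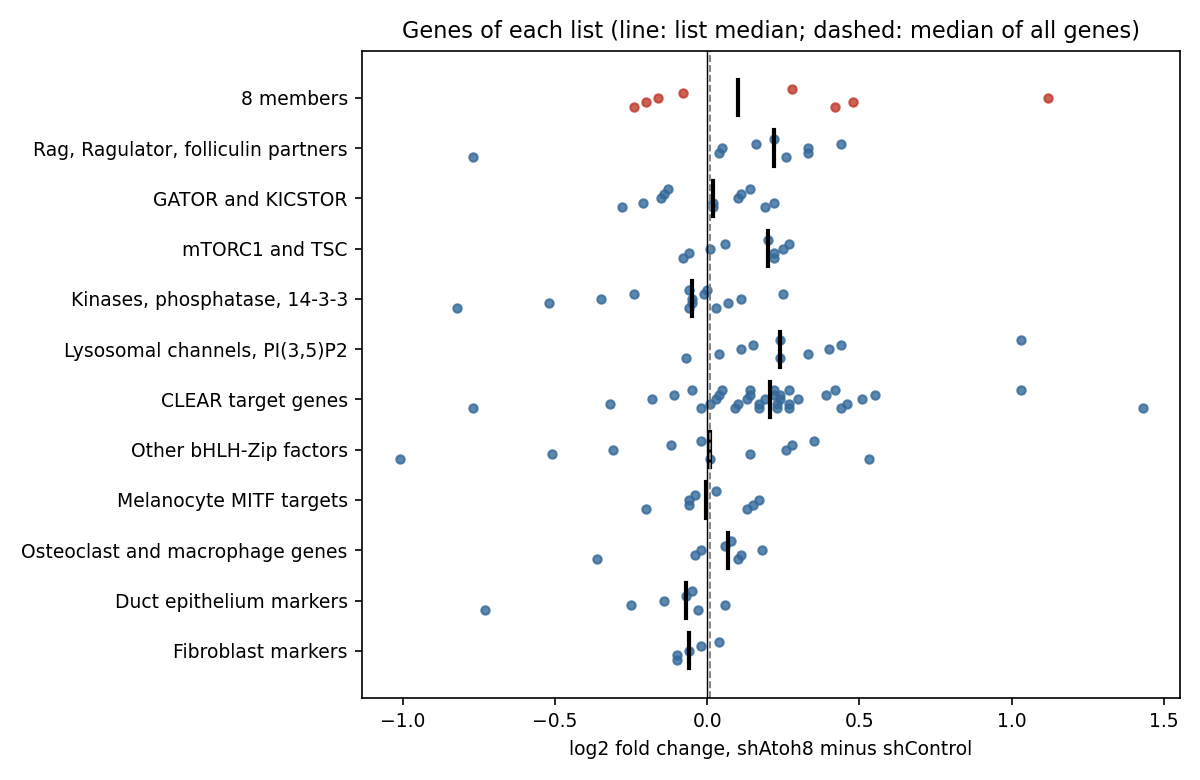
Log2 fold change of shAtoh8 over shControl (x axis) for each measured gene of each list (points, offset vertically so that they can be seen), with the list median as a black line and the median of all genes dashed. The medians of the Rag, lysosomal channel and CLEAR lists lie at 0.22, 0.24 and 0.20, and single genes such as Fnip2 (-0.77) and Ostm1 (1.03) lie far from them.

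Of 40 listed CLEAR target genes, 36 were measured and 30 were positive, against 9667 positive of 18193 genes. The median log2 fold change was 0.20, against 0.01 over all genes. The list had a median brightness percentile of 89.8, while all genes include dim ones, and genes of like brightness were not compared. The groups did not overlap for 18 higher and 1 lower (12.6% and 11.4% of all genes), and 17 had an unadjusted p under 0.05 (17.5% of all genes). In all 2 rose, Asah1, the acid ceramidase (1.43 ± 0.10 SE, adjusted p = 0.0104), and Ostm1, and 1 fell, Fnip2. Over all genes 0.517% passed higher and 0.638% lower. Ostm1, Clcn7, Fnip1 and Fnip2 also belong to the lists of channels or Rag partners. A 250-base window was given for 30 of the 40 genes, and 14 of these (46.7%) held CACGTG, against 6.86% of all genes with a window. CLEAR targets are named for this motif, so a share above that of all genes was built into the list and is not a result. The 14 had a median of 0.23 (12 positive) and the 16 without it 0.16 (12 positive). For TCACGTGA, the 7 genes with it had a median of 0.27 (5 positive) and the 23 without it 0.17 (19 positive). Over all measured genes with a window the median was 0.01 both for the 1262 with CACGTG and for the 13190 without. For TCACGTGA it was 0.03 for the 191 with it and 0.01 for the 14261 without.

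Other factors that bind CACGTG were not called in either direction without the block (0 of 11, median 0.01), where 0.517% of all genes passed higher and 0.638% lower. Of the 11, 4 lay under an unadjusted p of 0.05, against 17.5% of all genes. Those with the smallest p were the Max partners Mxd4 (0.53 ± 0.12 SE, adjusted p = 0.0997) and Mxd1 (-0.51 ± 0.13, 0.148). Myc, which pairs with Max on the same motif, read -1.01 ± 0.30 (0.181) and fell with the replicate block (0.0384).

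Genes that Mitf is known to drive in melanocytes passed in neither direction, on probe sets that were mostly dim (median percentile 31.1 of brightness), so whether these genes were expressed at all was not tested. Of the 8 measured (Tyr, Tyrp1, Dct, Pmel, Mlana, Slc45a2, Trpm1 and Oca2), 0 passed (0 at an unadjusted p under 0.05), the values lay between -0.20 and 0.17, and the list mean was 4.58 to 4.74 in shControl and 4.61 to 4.71 in shAtoh8. Osteoclast and macrophage genes, where Mitf, Tfe3 and Tfec are also active, likewise gave 0 of 8 called (0 at an unadjusted p under 0.05), with list means of 4.90 to 4.94 and 4.86 to 4.98. Over all genes 0.517% passed higher and 0.638% lower, and 17.5% had an unadjusted p under 0.05. At such shares, 0 calls in lists this short say little about them. Fibroblast markers gave 0 of 5 (0 at an unadjusted p under 0.05), with means of 5.38 to 5.40 in shControl and 5.31 to 5.37 in shAtoh8. These means did not overlap either, and 4 of the 5 genes had a negative value. The 7 measured duct markers had list means of 11.55 to 11.64 in shControl and 11.35 to 11.46 in shAtoh8, without overlap. Epcam, an epithelial adhesion protein, read -0.73 ± 0.19 (SE, limma adjusted p = 0.145) and passed lower with the block (0.0463). The other 6 markers were not called in either fit. Of these, Krt7 read -0.25 ± 0.09 (0.263) and Krt8 read 0.06 ± 0.07 (0.805), each without overlap between the groups. The part of duct and fibroblast markers in the results above was not tested. In such bulk samples, fewer cells that express a gene and less RNA per cell cannot be told apart.

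**Figure D4:**
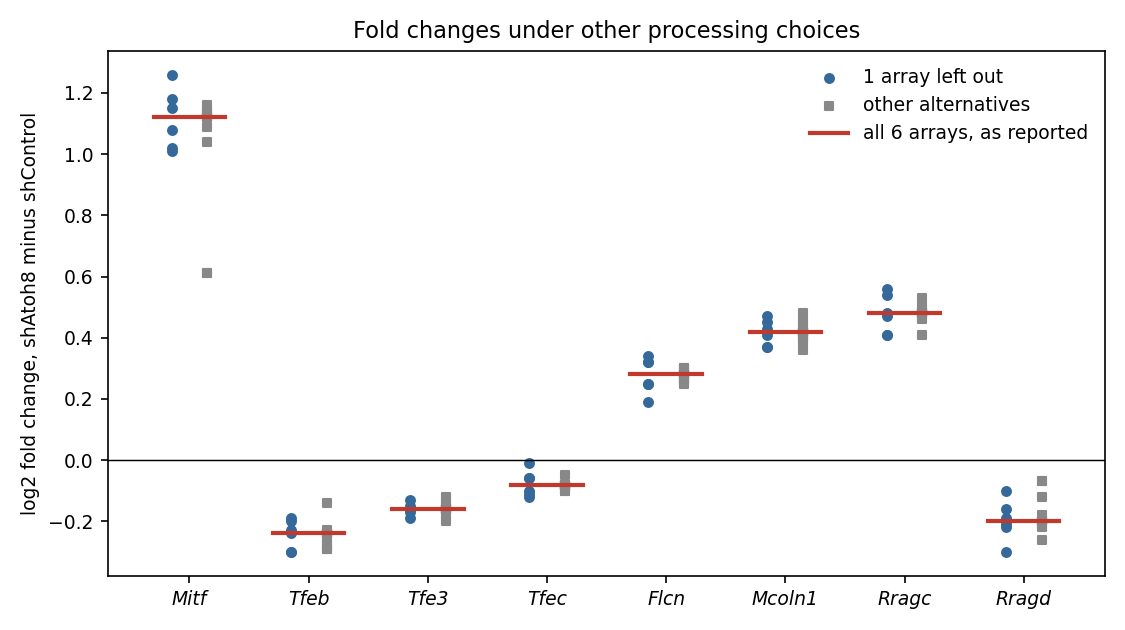
Log2 fold change of shAtoh8 over shControl (y axis) of the 8 genes with all 6 arrays (red line), with 1 array left out (circles) and under the other processing choices (squares). Each gene keeps its sign, and the Mitf value drops to 0.61 where its 2 probe sets are averaged.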

How the data were processed

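The deposited values are log2 signals of 45101 probe sets on 6 arrays, made with RMA in the affy package per the submitters' processing notes (versions not given in the sources used here); RMA already puts the arrays on a common distribution. The 64 control probe sets were left out. The platform annotation gave 34945 probe sets 1 symbol, 932 several and 9160 none, and a RefSeq table (GRCm38.p6) changed 0 symbols. limma 3.58.1 in R 4.3.3 (lmFit, eBayes; 4 residual and 3.30 prior degrees of freedom) compared shAtoh8 with shControl over 45037 probe sets, without a brightness filter; p-values are two-sided and Benjamini-Hochberg adjusted over all of them, and 0.05 was the threshold. SEs are limma's moderated ones, and 3 arrays a group limit the precision. The fit was tested on simulated data.

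The genes and the 11 lists (139 entries, 129 measured) were chosen with earlier results of these data known. In each pathway list up to 4 genes past the threshold were named, or the 2 with the smallest p; the most like gene had the highest Pearson r over the 6 arrays. Deviations from group means correlated at 0.407, 0.187 and 0.433 between arrays of the same replicate number (-0.351 to 0.0292 otherwise), so the numbers were taken to pair the arrays. Alternatives were the block, repeated quantile normalization, median centring, a brightness filter, array weights, a trended robust variance model, the choice of probe sets, and fits without each array. Fits on averaged probe sets adjusted p over genes, and fits on fewer probe sets adjusted over those kept.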

Additional observations from a re-analysis of the deposited data

How the results depend on the processing

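The fold changes of the 8 genes kept their sign in all 142 values under alternatives, of which 130 also stayed on the same side of the threshold. Much of this was fixed beforehand. For the genes whose groups do not overlap, leaving out an array cannot turn the sign. In all 3 pairs 4 of the 8 genes were higher and 4 lower, so leaving out a pair cannot turn it either. The block, the trended robust variance model and the brightness filter leave the fold change of a probe set as it was. The count of called probe sets was 361, and it was 1541 with the replicate block, 543 among probe sets above the median brightness, 579 with array weights and 0 to 191 with 1 array left out. The count of called genes among the 8 was 1, and it was 0 without any one array and 2 with the replicate block (Mitf and Rragc). It was 2 with averaged probe sets (Mitf and Mcoln1), where p was adjusted over genes. The block changed no other call of the 8. Among fits added with the data in hand, the block on averaged probe sets called 3 (Mitf, Mcoln1 and Rragc), and the block without both arrays of replicate 1, 2 or 3 called 0, 1 and 0 of the 8 and 0, 1779 and 0 probe sets. Averaging probe sets moved Mitf from 1.12 to 0.61, since its second probe set read 0.09. Tfec and Rragd lie below the median brightness and have no value under that filter. Over the alternatives the adjusted p was 0.00467 to 0.135 for Mitf, 0.0217 to 0.279 for Mcoln1 and 0.0102 to 0.281 for Rragc. The lowest value of each came from the block on averaged probe sets, adjusted over genes.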
